A study of Microtus ochrogaster with 51 samples.

Results

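The likeness of cohabiting partners was measured gene by gene in prairie voles (Microtus ochrogaster), in RNA of the nucleus accumbens, to ask how far the expression of a gene in one partner went with its expression in the other, and which genes carried that likeness. Pairs were taken by the pair name in the labels, and a pair was used when both partners had a column in the normalized count table. This gave 21 complete pairs (42 libraries), of 25 complete pairs and 51 libraries in the series. In 12 of the pairs (label 4wk_sep) a female and a male had lived together for 2 weeks and had then been apart for 4 weeks. In the other 9 (label 2wk_pair) they were sampled after 2 weeks together. The 4 weeks apart are given by the treatment label and the design text, while the treatment protocol states no time from separation to sampling. Each library is bulk polyadenylated RNA of 1 animal, whose nucleus accumbens was dissected from its frozen brain. The 21 pairs fall into 4 cohorts: cohorts 1 and 2 hold 2 and 7 of the 2-week pairs, and cohorts 3 and 4 hold 5 and 7 of the separated pairs. Treatment and cohort can therefore not be told apart. The labels state no strain, genotype or age.

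The prairie vole is a socially monogamous rodent in which mates form a lasting, selective bond, and partners share a nest. The nucleus accumbens lies in the ventral striatum and receives dopamine from the midbrain. In prairie voles its dopamine and oxytocin receptors are known to take part in the formation and upkeep of the bond. Most of its neurons are inhibitory projection neurons, among which lie interneurons, glia and vessels. In bulk RNA, fewer cells of a type and less RNA per cell cannot be told apart.

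Whole reads could be recovered from the normalized values. The 42 libraries held between 20067514 and 37737711 of them on genes (median 27487240). No libraries were identical (0 pairs of libraries). The table names its genes by 23038 IDs and pairs none with a symbol, and 0 of these matched the reference gene table of the species. Genes are given by ID, the labelled tissue could not be checked against its markers, and neither gene roles nor sequences are given. Labels and columns disagreed for 2 females of the 2-week group, of pairs 9 and 15: the labels place only that of pair 15 in the normalized table, while the table has a column only for that of pair 9. The columns were followed, so pair 9 is among the 21 pairs. Whether the names of these 2 females were exchanged was not tested, and in that case the female of pair 9 would belong to pair 15. Pair 9 also stands apart in the results. The mean r, the count of genes called and the difference between the groups are also given without it.

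A gene was tested when its normalized count averaged at least 10 over the libraries, which left 14151. For each, the value log2(normalized count + 1) of a library was set relative to the mean of its own cohort and gender. The Pearson correlation r of the female and the male value was then taken over the 21 pairs. A gene with r near 1 was high in both partners of some pairs and low in both partners of others. Differences between cohorts and between the sexes do not enter r, because their means have been subtracted.

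Partners were alike in most genes. The mean of r over genes was 0.379 and the median 0.404, with quartiles of 0.114 and 0.677, and r was above 0 in 11841 genes (83.7%). When males were reassigned to other females of their cohort, no reassignment of 100000 reached this mean (one-sided permutation p = 1e-05, the smallest these draws can give). Gene by gene, 5355 genes had a positive r at an adjusted p of 0.05 or less (37.8% of the genes tested) and 21 had a negative r (0.148%), by a two-sided permutation test with Benjamini-Hochberg adjustment over all 14151 genes. Among them 688 genes were at the smallest p that the draws allow. Genes are not independent of each other, so the count describes how widely the likeness was spread and not how many separate signals there were.

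The distance between partners gives the same comparison in units of expression. In the median gene, partners differed by 0.27 on the log2 scale, or 1.21-fold, after subtraction of the cohort and gender means. Non-partners of opposite sex from the same cohort differed by 0.42, or 1.34-fold. Partners were closer than non-partners in 11522 genes (81.4%). In the 5355 genes called positive, the median distance was 1.16-fold between partners and 1.39-fold between non-partners, a direction that the choice of these genes fixes. In the 8775 genes not called it was 1.26-fold between partners and 1.30-fold between non-partners. A mean over all genes was also taken for each pair, and it was smaller for partners than for non-partners in 21 of 21 pairs. It ranged from 0.31 to 0.47 on the log2 scale for partners (median 0.39), against 0.45 to 0.74 for non-partners (median 0.53), so the ranges overlapped slightly. Pairs 2 and 8, the only pairs of cohort 1, share 1 value after centring. They are counted as 2 in this and later counts of pairs.

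**Figure D1:**
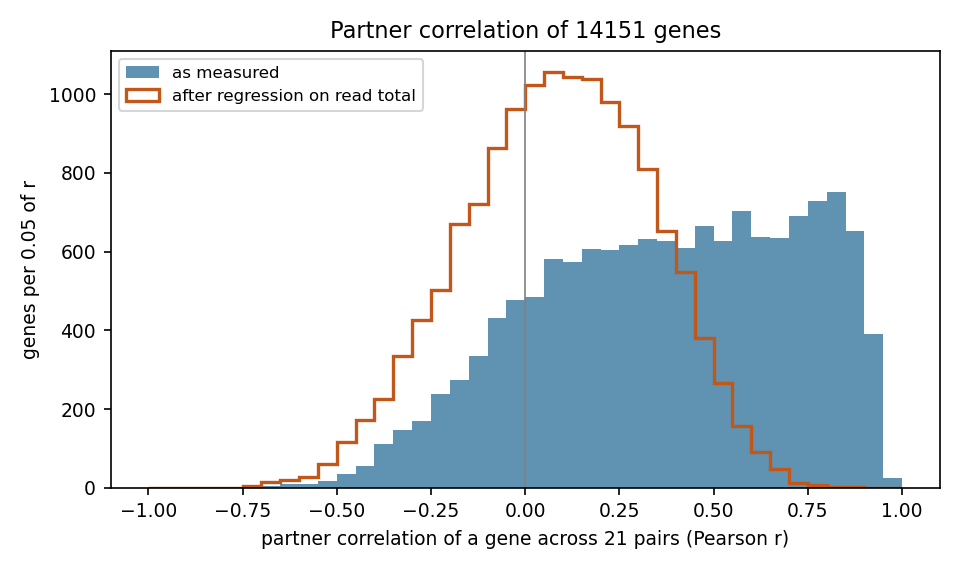
Number of genes (y axis, per 0.05 of r) by the correlation of partners across 21 pairs (x axis), as measured (filled) and after regression on the read total of the library (outline), for 14151 genes. As measured the values pile up towards 1 (median 0.404); after regression they centre near 0 (median 0.094).

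Fitting the pair as a fixed term beside cohort and gender gave the same picture with another test. The pair passed an adjusted p of 0.05 in 6427 genes with limma (45.4%) and in 6335 genes with edgeR's quasi-likelihood test on the recovered reads (44.8%). Of the 5355 genes called positive by permutation, 5248 (98.0%) were among the limma calls and 5218 (97.4%) among the edgeR calls. These are 81.7% of the limma calls and 82.4% of the edgeR calls. The F test looks only for pairs whose partners are alike, and so could not call the 21 negative genes.

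Both treatment groups showed the likeness. In the 12 separated pairs the mean r was 0.413 (one-sided permutation p = 4e-05), and in the 9 pairs of the 2-week group 0.343 (exact permutation over 10080 reassignments, one-sided p = 0.00486). Within single cohorts the mean r was 0.412 in cohort 2 (one-sided exact permutation p = 0.00377, 7 pairs), 0.437 in cohort 3 (one-sided exact permutation p = 0.00833, 5 pairs) and 0.402 in cohort 4 (one-sided exact permutation p = 0.00119, 7 pairs). Cohort 1 holds 2 pairs, which share 1 value after centring, and gives no correlation of its own. The mean contribution of a pair, scaled by the 21 pairs, was 0.422 in separated pairs and 0.322 in 2-week pairs, a difference of 0.0999 (two-sided permutation p = 0.641). This difference was -0.0353 without the separated pair 17 and -0.00909 without cohort 1, but 0.338 without the 2-week pair 9 (two-sided permutation p = 0.0683) and 0.487 without cohort 2 (two-sided permutation p = 0.129). Its size and direction rest on these pairs. The permutation of the treatment labels took pairs 2 and 8 of cohort 1 as 2 pairs, although they share 1 value.

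The same genes tended to be alike in both groups, which share no animals. In the separated pairs alone 3927 genes had a positive r past the adjusted threshold (27.8%) and 15 a negative one (0.106%). In the 2-week pairs alone 0 genes passed it, where 3670 genes (25.9%) had an unadjusted p under 0.05 in the two-sided exact permutation test. With 9 pairs, ENSMOCG00000015461 had an adjusted p of 0.0528 in this test at an r of 0.98. The numbers of pairs differ, so 0 and 3927 calls do not compare the groups. Of the 3927 genes, 3790 (96.5%) had an r above 0 in the 2-week pairs, against 77.0% of all genes tested. There 2385 of them (60.7%) had an unadjusted p under 0.05 with a positive r, against 25.4% of all genes tested and making up 66.4% of the 3590 genes that met this condition. Their median r in the 2-week pairs was 0.755, while that of the 10224 genes not called in separated pairs was 0.259. Across genes, r in separated pairs and r in 2-week pairs correlated at 0.516, a description over 14151 genes that are not independent of each other. These comparisons include pair 9, without which the mean r of the 2-week pairs was 0.210, and they were not made without it. They use values as measured, and the overlap after regression on read total was not examined.

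Among called genes of at least 100 normalized counts on average, the highest r was that of ENSMOCG00000015461, at 0.98. In separated voles its normalized count was 355 at the lowest, 529 at the median and 3765 at the highest in females, and 351, 690 and 3557 in males. In the 2-week group the same values were 336, 769 and 4094 in females and 397, 677 and 3827 in males. Each range spans about the same levels in both sexes, and high values came in both partners at once. The separated pair 17 had 3765 in the female and 3557 in the male, and the separated pair 28 had 355 and 465. The 2-week pair 9 had 4077 and 3827, and the 2-week pair 13 had 336 and 403. Partners lay on the same side of their cohort means in 21 of 21 pairs. They differed by 1.13-fold on average, against 2.66-fold between non-partners. The adjusted p was 0.000206 (permutation), and r was 0.99 in separated pairs and 0.98 in 2-week pairs.

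ENSMOCG00000014338 came next, with an r of 0.97 (adjusted permutation p = 0.000206). In separated voles it had 1283, 2410 and 3340 normalized counts at the lowest, median and highest in females, and 1295, 2484 and 3054 in males. In 2-week paired voles it had 1339, 2005 and 3002 in females, and 1466, 2106 and 2787 in males. It ran opposite to the first gene in the same animals: pair 17, the highest of the separated pairs in ENSMOCG00000015461 in both sexes, was the lowest of them here, with 1283 in the female and 1295 in the male. Partners were on the same side in 20 of 21 pairs and differed by 1.05-fold on average, against 1.41-fold between non-partners. Leaving out any 1 pair kept r of ENSMOCG00000015461 between 0.98 and 0.99 and that of ENSMOCG00000014338 between 0.96 and 0.98. After regression on read total, described below, their r were 0.50 and 0.38 (adjusted permutation p = 0.708 and 0.837).

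The 2 most abundant genes called were ENSMOCG00000000004 and ENSMOCG00000000002, with mean normalized counts of 512781 and 337778. Of these ENSMOCG00000000004 had 227497, 460833 and 1061131 normalized counts at the lowest, median and highest in separated females, and 272607, 576468 and 1078538 in separated males. In 2-week voles it had 130189, 395858 and 736046 in females, and 263245, 435665 and 688972 in males. Its highest value was in pair 30 in both sexes of the separated group. The r of ENSMOCG00000000004 was 0.69 (adjusted permutation p = 0.00467) and that of ENSMOCG00000000002 was 0.71 (adjusted permutation p = 0.00324). Partners were on the same side in 14 and 12 of 21 pairs, fewer than for the first 2 genes. Without cohort 4 both lost their call, at r of 0.62 and 0.63. In quantile-normalized values ENSMOCG00000000004 lost it too (r = 0.41, adjusted permutation p = 0.144). After regression on read total the r of the 2 genes were 0.37 and 0.45 (adjusted permutation p = 0.791 and 0.728).

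**Figure D2:**
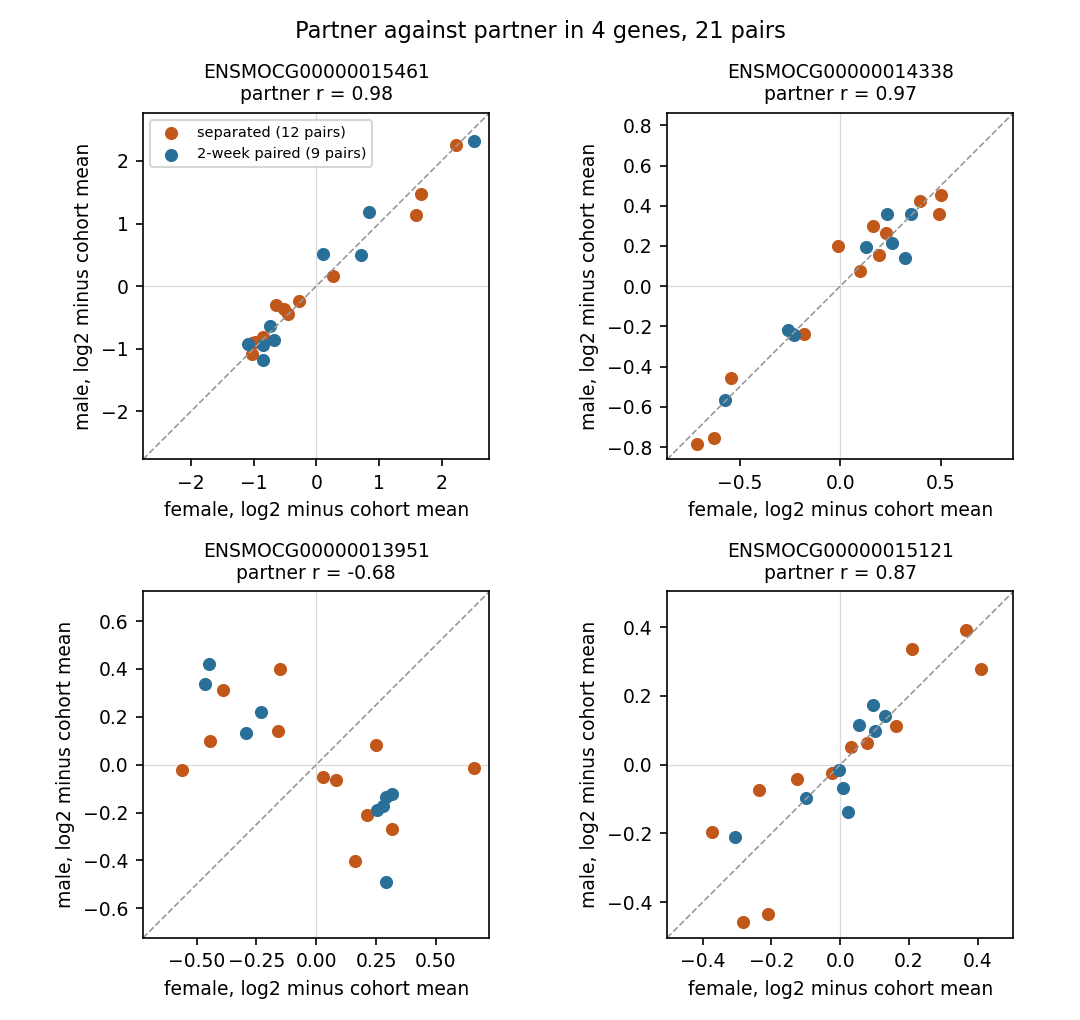
Female value (x axis) against male value (y axis) of the same pair, as log2(normalized count + 1) minus the mean of the cohort and gender, in 4 genes; each point is 1 pair, separated (orange, 12 pairs) or 2-week paired (blue, 9 pairs), and the dashed line marks equal values. ENSMOCG00000015461 (r = 0.98), ENSMOCG00000014338 (r = 0.97) and ENSMOCG00000015121 (r = 0.87) follow the line in both groups, while ENSMOCG00000013951 (r = -0.68) runs across it.

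Few genes passed the threshold with a negative r, the 21 given above. The lowest r was that of ENSMOCG00000013951, at -0.68 (adjusted permutation p = 0.00536). Its normalized count was 143, 234 and 335 at the lowest, median and highest in separated females and 145, 188 and 254 in separated males. In the 2-week group it was 147, 242 and 254 in females and 150, 226 and 283 in males. Partners lay on opposite sides of their means in all but 2 of the 21 pairs: in pair 16 the female had 248 and the male 150, and in pair 10 the female had 148 and the male 283. Partners differed by 1.41-fold on average, against 1.24-fold between non-partners. The call did not hold without cohort 2 (r = -0.52), nor in TPM (r = -0.26, adjusted permutation p = 0.467). It was also lost in TPM rescaled without the 11 most abundant IDs (r = -0.46, adjusted permutation p = 0.088) and in quantile-normalized values (r = -0.52, adjusted permutation p = 0.0683). After regression on read total the r of ENSMOCG00000013951 was -0.68 (adjusted permutation p = 0.484).

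ENSMOCG00000016057 had an r of -0.65 (adjusted permutation p = 0.0121). It had 485, 596 and 1074 normalized counts at the lowest, median and highest in separated females and 354, 520 and 1157 in separated males. In 2-week paired voles it had 407, 467 and 801 in females and 354, 668 and 885 in males. The highest separated female, of pair 21, had 1074 where its partner had 475, and the highest separated male, of pair 19, had 1157 where its partner had 488. The call was lost without pair 12 (r = -0.54, adjusted permutation p = 0.118), without cohort 2 or cohort 3 (r = -0.61 and -0.65), and in TPM (r = -0.52, adjusted permutation p = 0.0697).

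Partners were more alike in abundant genes. Genes were put in 10 equal bins by mean normalized count. In the lowest bin, from 10 to 32.7 normalized counts, the mean r was 0.138 and 8.40% of genes were called positive. In the fourth bin, from 169 to 295 counts, it was 0.387 with 38.4% called, close to the share of all genes. In the highest bin, above 3379 counts, it was 0.489 with 51.3% called. The mean r was higher in each bin than in the one below it, and most of the rise lay in the lower bins. In separated pairs the mean r was 0.157 in the lowest bin and 0.570 in the highest. In 2-week pairs it was 0.116 in the lowest, 0.429 in the ninth and 0.398 in the highest. The spread of log2 values was larger in rare genes, at a median SD of 1.03 in the lowest bin and 0.25 in the highest. What counting noise takes from r in the low bins was not tested.

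**Figure D3:**
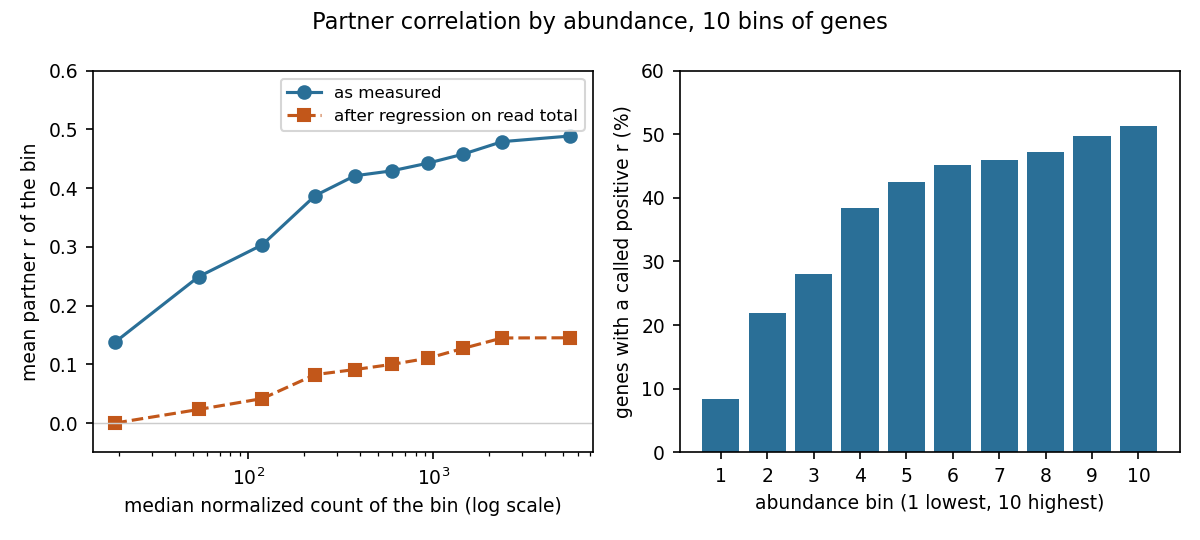
Left, mean partner r of the genes in each of 10 abundance bins (y axis) by the median normalized count of the bin (x axis, log scale), as measured (circles) and after regression on read total (squares). Right, percent of genes in each bin called positive as measured. The mean r climbs from 0.138 to 0.489 as measured, and from 0.000118 to 0.145 after regression.

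Partners were also alike in the read total of their libraries. Over the 21 pairs the centred log2 read totals of female and male had a Pearson r of 0.668 (permutation p = 0.00314) and a Spearman rho of 0.673 (permutation p = 0.00257). Adjusted over the 3 library measures examined, these were 0.00942 and 0.00771. Leaving out pairs 21 and 30, whose females lay farthest from the median, gave an r of 0.642. Cohort 2 alone gave 0.785 and cohort 4 gave 0.790, and the other cohorts hold fewer than 6 pairs. The highest totals came together in some pairs, such as pair 9, with 32488573 reads in the female and 33019533 in the male. In pair 17 they stood farther apart, at 28548096 reads in the female and 36685795 in the male.

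The other 2 measures gave lower values. The fragment index compares the reads per TPM of the shortest with those of the longest genes in a library. Its partner r was 0.562 (permutation p = 0.0219, adjusted 0.0329; rho = 0.581, permutation p = 0.017, adjusted 0.0255), or 0.4995 without the 2 farthest pairs. The share that the 11 most abundant IDs took of the counts had a partner r of 0.327 (permutation p = 0.214, unchanged by the adjustment; rho = 0.279, permutation p = 0.289), or 0.237 without the 2 farthest pairs. Both measures went with the log2 read total, the fragment index at r = 0.866 and the log2 share at r = -0.636.

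The genes that were alike in partners were largely those that went with the read total. Of the 5355 genes called positive, 4821 (90.0%) had an absolute correlation with the centred log2 read total of at least 0.5 over the 42 libraries, against 1846 (21.04%) of the genes not called. They went in both directions: 3026 correlated positively with the read total, ENSMOCG00000015461 among them (r = 0.78), and 2329 negatively, among them ENSMOCG00000014338 (r = -0.77). In 10 bins of genes by this correlation, the mean partner r was 0.731 in the bin most negatively related, 0.0291 in the fifth bin, where the relation was closest to 0 from below, and 0.794 in the bin most positively related. The share called positive was 88.6%, 1.84% and 95.7% in the same 3 bins. Since the same libraries give both correlations, this is a description.

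After each gene was regressed on the read total, with 1 slope over the 42 libraries, the likeness was no longer past the threshold. The mean r was 0.0865 (one-sided permutation p = 0.121), with 9032 genes (63.8%) above 0. It was 0.130 in separated pairs (one-sided permutation p = 0.0888) and 0.0188 in 2-week pairs (exact permutation, one-sided p = 0.46). Within cohorts it was 0.136 in cohort 2 (p = 0.0772), 0.126 in cohort 3 (p = 0.25) and 0.122 in cohort 4 (p = 0.0978), each one-sided by exact permutation. Separated minus 2-week pairs, the scaled contributions differed by 0.131 after regression, at 0.143 and 0.0116 (two-sided permutation p = 0.383). The mean r over all pairs had a one-sided permutation p of 0.0432 without pair 2 or pair 8 and of 0.0438 without cohort 1, at 0.117 in each case. These 3 settings are nearly the same, since a lone pair of a cohort has no deviation left. The mean r was lowest without pair 24, at 0.0263 (one-sided permutation p = 0.355).

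No gene was called after the regression (0% of 14151). By the two-sided permutation test 996 genes (7.04%) had an unadjusted p under 0.05, where 708 would be at a uniform p. With 100000 draws a lone gene at the smallest p reaches an adjusted p of 0.142, so 3 genes at that p would have been needed for a call. With 2000000 draws for the 29 genes with the smallest p, 1 gene passed. The limma F test on the residuals called 1 gene (0.00707%), which was not the same gene, with 1422 genes (10%) at an unadjusted p under 0.05. In the genes called positive as measured, the median r was 0.250 after regression, against 0.739 as measured. It was -0.00453 after regression in the genes not called, against 0.187 as measured. Of the 5355 genes 519 still had an r of at least 0.5, and 417 genes had an r of at least 0.9 as measured, where 0 had one after regression. The distance in the median gene was 1.24-fold between partners and 1.25-fold between non-partners after regression. By abundance the mean r then ran from 0.000118 in the lowest bin to 0.145 in the highest.

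Between pairs and within pairs the fitted slopes on read total were not the same. For each gene a slope was fitted over the pair means and another over the differences between partners, in log2 units per doubling of reads. The median absolute slope was 0.993 between pairs and 0.423 within pairs. Across genes the slopes correlated at 0.0189, and they had the same sign in 50.2% of genes. The log2 read totals had an SD of 0.189 for pair means and 0.170 for differences between partners. A difference counts the spread of both partners in full, where a mean averages it, so these SDs are not on the same scale. On a like scale read totals varied less within pairs than between pairs, so the slopes within pairs are less precise. What this takes from the match of the slopes was not tested. ENSMOCG00000015461 had a slope of 5.46 between pairs and 0.27 within pairs. For ENSMOCG00000014338 the slopes were -1.89 between and 0.11 within. A gene's sign between pairs was matched within pairs about as often as not. When the within-pair slope was removed from every library instead, the mean r was 0.435 and 6246 genes were called positive, with 13 negative. This setting was added after the data were seen. Its slope is fitted to the differences between true partners and so makes them smaller, and reassigned males keep values from that fit. A higher r is thus favoured in advance, and these calls do not show likeness apart from read total. With read total as a covariate beside the pair, where the slope is also fitted within pairs, limma called 2990 genes (21.1%) and edgeR 2933 (20.7%). The slope between pairs is not removed there, so these counts do not show likeness apart from read total either. Read total and pair membership vary together across pairs, and their parts in the slopes between pairs cannot be told apart.

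**Figure D4:**
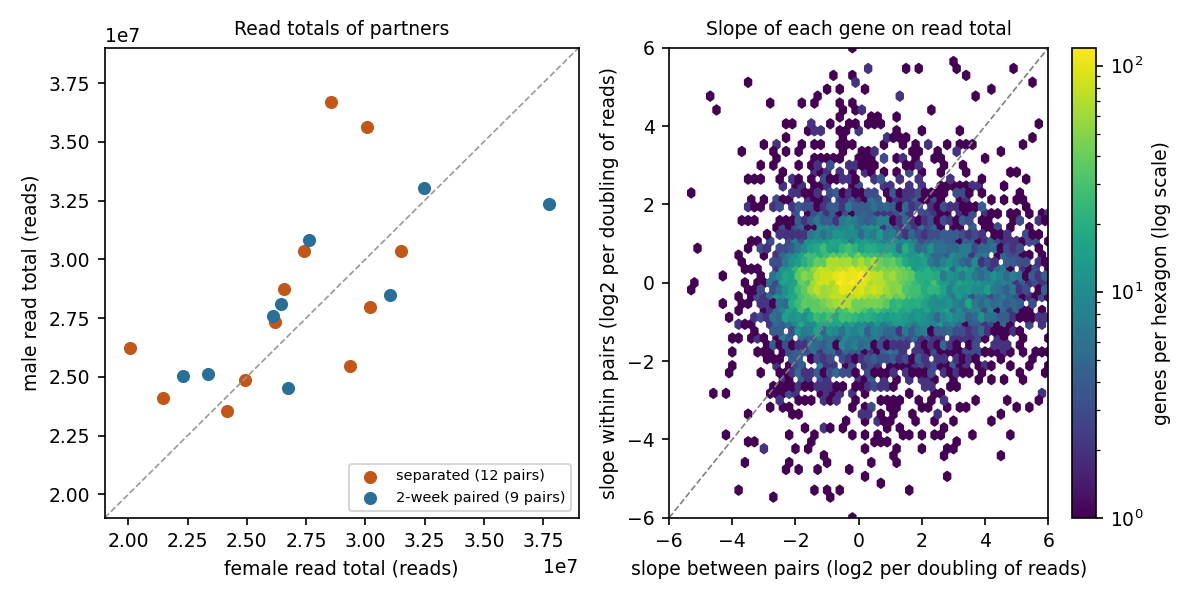
Left, read total of the male against that of the female for 12 separated pairs (orange) and 9 2-week pairs (blue), in reads, with a dashed line at equal values (r = 0.668 of the centred log2 totals). Right, slope of each gene on log2 read total within pairs (y axis) against between pairs (x axis), colour giving genes per hexagon on a log scale; 101 genes lie outside the axes. The slopes spread farther along the x axis than along the y axis (median absolute slope 0.993 between pairs and 0.423 within pairs), with a correlation of 0.0189.

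The 2 called genes whose r fell most on regression, with changes of -1.13 and -1.06, had the opposite sign after it. Since r cannot exceed 1, a fall of more than 1 ends below 0, so this sign follows from the choice of the genes. Their unadjusted p after regression were 0.0806 and 0.236 (two-sided permutation). The r of ENSMOCG00000003375 was 0.76 as measured (adjusted permutation p = 0.00192) and -0.37 after regression. In separated voles it had 178, 228 and 404 normalized counts at the lowest, median and highest in females and 110, 245 and 484 in males. In 2-week paired voles it had 147, 287 and 366 in females and 132, 247 and 473 in males. It correlated with the read total at r = 0.79. For ENSMOCG00000017860 the values were 0.75 as measured (adjusted permutation p = 0.00149) and -0.30 after regression, and it correlated with the read total at r = -0.80. It had 696, 1067 and 1389 normalized counts in separated females, 757, 1048 and 1396 in separated males, 663, 995 and 1446 in 2-week females and 744, 825 and 1592 in 2-week males, each as lowest, median and highest. Partners were on the same side in 17 of 21 pairs for ENSMOCG00000003375 and in 19 of 21 for ENSMOCG00000017860.

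The smallest p after regression was that of ENSMOCG00000015121, the gene called with 2000000 draws (adjusted permutation p = 0.0425). Its r was 0.87 after regression and 0.87 as measured (adjusted permutation p = 0.000281), and partners were on the same side in 19 of 21 pairs. In separated voles it had 1832, 2390 and 3418 normalized counts at the lowest, median and highest in females, and 1637, 2415 and 3293 in males. In 2-week voles it had 1734, 2207 and 2399 in females, and 1796, 2053 and 2343 in males. The range was wider in separated voles of both sexes. Partners differed by 1.06-fold on average and non-partners by 1.20-fold. Its r was 0.88 in separated pairs and 0.82 in 2-week pairs as measured, but 0.16 in TPM (adjusted permutation p = 0.732), and its adjusted p in the limma F test on the residuals was 0.282.

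Next by p after regression was ENSMOCG00000019130, with an r of 0.75 after regression (adjusted permutation p = 0.283) and 0.93 as measured (0.000206). It had 1131, 1307 and 2747 normalized counts in separated females, 1045, 1289 and 2324 in separated males, 1053, 1433 and 2834 in 2-week females and 973, 1400 and 2583 in 2-week males, each as lowest, median and highest. Pairs 9 and 17 were high in both partners, with 2834 and 2335 in pair 9 and 2747 and 2324 in pair 17. On the negative side the smallest p after regression were those of ENSMOCG00000016057 (r = -0.73, adjusted permutation p = 0.35) and ENSMOCG00000014231 (r = -0.63, adjusted permutation p = 0.367). ENSMOCG00000014231 had 83.5, 116 and 194 normalized counts in separated females, 73.1, 113 and 146 in separated males, 78.8, 110 and 186 in 2-week females and 78.6, 133 and 201 in 2-week males. In pair 20 its female partner had 160 and its male partner 73.1, while in pair 26 the female had 83.5 and the male 146. None of these 4 passed the adjusted threshold after regression with 100000 draws.

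Which genes were called depended on the scaling of the table. In TPM the mean r was 0.344 (one-sided permutation p = 0.00032), with 4833 positive and 30 negative calls. Of the 5355 genes called positive in normalized counts, 3241 were called there too, which is 60.5% of that list and 67.1% of the TPM list. The loss lay in the genes that correlated negatively with the read total: of the 3026 positive ones 2998 were called in TPM (99.1%), but of the 2329 negative ones 243 (10.4%). The median correlation of a gene with the read total was 0.00331 in normalized counts and 0.454 in TPM, with 78.6% of genes above 0 in TPM. In TPM rescaled by the median ratio to the gene means the median was -0.0148, the mean r 0.386, and 5228 of the 5355 genes (97.6%) were called, 2279 of the 2329 included (97.9%). In TPM rescaled without the 11 most abundant IDs the median was 0.321, and 824 of the 2329 were called (35.4%). ENSMOCG00000014338 had an r of 0.57 in TPM (adjusted permutation p = 0.0127), and ENSMOCG00000017860 had -0.06.

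The likeness was unevenly spread over the pairs. The mean r is the sum of a contribution from each pair, which is large when both partners lie far from their cohort means on the same side in many genes. Contributions were above 0 in 11 of 12 separated pairs, from -0.00122 to 0.0694 (median 0.0155), and in 7 of 9 2-week pairs, from -0.00258 to 0.0795 (median 0.0107). The 2-week pair 9 gave 20.96% of the mean r and the separated pair 17 gave 18.3%, followed by the separated pairs 32 (11.96%) and 31 (9.20%). Without pairs 9 and 17 the mean r was 0.293 (one-sided permutation p = 3e-05), and 2886 genes were called positive and 14 negative. Without pair 9 the mean r of the 2-week pairs was 0.210 (one-sided exact permutation p = 0.0194). With 1 pair left out at a time the mean r over genes lay between 0.340 (without pair 9) and 0.412 (without pair 2 or pair 8), and the genes called in either direction between 4275 (without pair 9) and 5646.

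A count of genes that ignores the size of the deviations was more even. In separated pairs the share of genes with both partners on the same side of their means was 51.5% at the lowest, 65.5% at the median and 82.2% at the highest. In 2-week pairs it was 54.4%, 63.3% and 82.8%. Among non-partners of the same cohort the median was 48.5%, and partners were above the non-partners of their own animals in 21 of 21 pairs. After regression on read total this held in 12 of 21 pairs. The contribution of pair 24 was higher after regression, at 0.0464 against 0.0203 as measured.

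**Figure D5:**
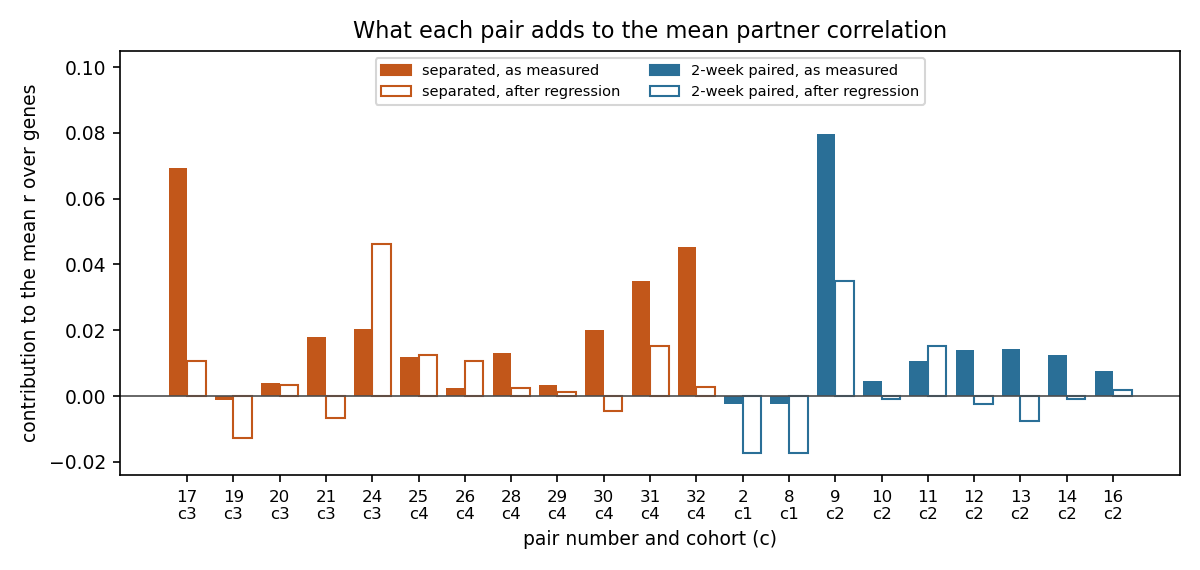
Contribution of each pair to the mean partner r over 14151 genes (y axis), for 12 separated pairs (orange, left) and 9 2-week pairs (blue, right), as measured (filled) and after regression on read total (open); the x axis gives the pair number and the cohort (c). Pairs 9 and 17 stand highest as measured, at 0.0795 and 0.0694, and pair 24 after regression, at 0.0464.

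Partners that the 21 pairs do not include were examined in TPM, in which 4 more pairs are complete. Per its name, the normalized table holds libraries kept for their quality, without those of 6-week pairs. The 4 pairs are the 2-week pair 15 and 3 pairs kept together for 6 weeks (label 6wk_pair), pairs 18, 22 and 27. Deviations were taken from the cohort and gender means of the 21 pairs and divided by each gene's SD there, and the product of both partners' deviations was averaged over 14150 genes. This mean product was 6.79 in pair 15, 1.23 in pair 18, 0.226 in pair 22 and 0.0983 in pair 27, above 0 in all 4. The mean was 2.09 over partners and -0.187 over non-partners, whose values ranged from -0.874 to 0.377. The one-sided exact permutation p was 0.0417, which is the smallest that 24 reassignments can give. These reassignments cross cohorts and treatments, since only pairs 18 and 22 share a cohort, so pair and cohort cannot be told apart in this test. In the genes called positive in the 21 pairs the mean was 2.42 over partners, and in the genes not called it was 1.88. Without pair 15 it was 0.517 over partners and -0.190 over non-partners (one-sided exact permutation p = 0.167, the smallest of 6 reassignments). Reads could not be recovered for these pairs, so no regression on read total was made, and pairs 18, 22 and 27 differ in treatment from the means they were set against.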

How the data were processed

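RNA of the nucleus accumbens was sequenced in bulk, in 1 library per animal. In the normalized table the deposited signal of a gene is its read count over a size factor of the library, and DESeq2 and DESeq are named, without version, per the submitters' processing notes. In all 42 columns 100% of values were whole multiples of 1 step, within 0.01 of a read, which gave the recovered reads. In 1 column, the female of pair 20, the step is so close to 1 that whole reads cannot be told from rounded values, and its values were used like the others. The authors' TPM table holds 51 libraries. Which aligner, counter, build and annotation were used is not given in the sources used here. IDs numbered 23038, of which 0 matched the 26397 genes of the reference table, so the gene lists and cell type markers could not be used.

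The labels give both partners 1 pair name, from which the pair number was taken. The pairs, measures and rules were chosen with earlier results of these data known, in which partners were already seen to be alike. The measure was computed with Python 3.11.15 and numpy 2.4.6, with a pseudocount of 1 (0.5 for TPM). Males were reassigned within cohorts 100000 times, or exactly where the number allowed; in the 4 pairs outside the 21 they were reassigned across cohorts. The pair was also fitted with limma 3.58.1 and edgeR 4.0.16 (R 4.3.3). The tests were tested on simulated data. In a first simulation, with equal spread in all genes, the permutation test recovered most alike genes but the limma and edgeR tests missed most. The simulation was then changed to a pair effect added to a spread that varies between genes, in which all recovered most, so the power of the limma and edgeR tests depends on the form of the likeness. Named genes had a mean normalized count of at least 100: the 2 highest and 2 lowest called r, those with the smallest p after regression (2 per direction), the 2 most abundant called and the 2 with the largest drop.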

Additional observations from a re-analysis of the deposited data

Results flagged for a closer look

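In groups of 9 libraries or pairs, 27 sets of values were searched for a highest or lowest value far from the others, and 3 were found; chance gives about 1 in 20. Pair 9 of the 2-week group contributed 0.0795 to the mean partner correlation over genes, far above the other 8 2-week pairs. In the same pair 82.8% of genes had both partners on the same side of their cohort means, again above the other 2-week pairs. The labels of its female do not list the normalized table, although the table has the column, and both of its libraries were deep, at 32488573 and 33019533 reads. Without pair 9 the mean r of the 2-week pairs was 0.210 (one-sided exact permutation p = 0.0194), and without pairs 9 and 17 that of all pairs was 0.293 (one-sided permutation p = 3e-05). After regression on read total the contribution of pair 9 was 0.0349 and its share of genes on the same side 70.6%. The 2-week female of pair 12 had 801 normalized counts of ENSMOCG00000016057, where the other 8 females of its group lay lower, and without that pair the negative correlation of the gene lost its call.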

How the results depend on the processing

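The mean partner correlation over genes stayed past its threshold in all alternatives but 3: regression on read total with the share of the 11 most abundant IDs (0.0506), on read total with the fragment index (0.0661), and removal of the first principal component (0.0123). Regression on the share alone (0.166) or the fragment index alone (0.171) kept it past the threshold at less than its reported size of 0.379 (one-sided permutation p = 0.0121 and 0.0179). With 1 pair left out it was 0.340 to 0.412, and for separated pairs 0.356 to 0.438 and 2-week pairs 0.210 to 0.412. After regression on read total it was 0.0263 to 0.117 with 1 pair left out and 0.117 without cohort 1, past 0.05 there. The count of genes called was 0 after regression on the share, on the fragment index, on read total with either, and with the first principal component removed. It was 2900 without pairs 9 and 17, and 4275 to 5646 with 1 pair left out. Labels pair the libraries, and with the pair as a replicate block and read total as a covariate it was 2990 (limma) and 2933 (edgeR). The slope on read total is fitted within pairs there, so these 2 counts do not show likeness apart from read total. The block without covariate gave counts of 6427 (limma) and 6335 (edgeR), within 1.5 times of the reported count. After regression the count was 0 in all but 2 alternatives, both added later: 1 with the replicate block on the residuals (limma) and 1, a different gene, with 2000000 draws. With 1 pair left out it was 0 each time.

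The difference between separated and 2-week pairs was -0.0353 to 0.338 with 1 pair left out (lowest without pair 17, highest without pair 9), -0.00909 without cohort 1 and 0.487 without cohort 2. The read totals of partners correlated at 0.626 to 0.752 with 1 pair left out. The mean r of the highest minus the lowest abundance bin, 0.350 as reported, was above 0 throughout. It was 0.475 with no filter, 0.174 for at least 100 counts, 0.308 by Spearman, 0.249 in TPM, 0.319 in TPM without the top 11 IDs, and 0.295 without pairs 9 and 17. Regression gave 0.194 on the share, 0.115 on read total and share, 0.208 on the fragment index and 0.135 on read total and fragment index. Removing the first component gave 0.0549 and the within-pair slope 0.318. Without cohort 1, 2 or 4 it was 0.409, 0.324 and 0.318, and 0.327 to 0.409 with 1 pair left out. The held-out product was 0.498 with deviations scaled alike and 0.517 to 2.75 with 1 pair left out, where p cannot go below 0.167 (exact permutation). The r of ENSMOCG00000003375 was -0.37 on read total with the share and -0.31 with the fragment index. For ENSMOCG00000017860 these were -0.38 and -0.30, and TPM gave -0.0643. The cause of these changes was not tested.

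The limits are these. Cohort and treatment cannot be told apart, 2 pairs of cohort 1 share 1 value, and genes are not independent, so tests rest on 21 pairs. In 9 pairs the smallest exact p is 9.92e-05, which leaves little room for adjustment. The slope on read total is fitted on the same libraries and can take up what partners share.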

Other observations

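Partner correlation was also described by the relative length of a gene. This is the ratio of its reads, summed over the libraries, to its TPM scaled by the read totals and summed likewise. The median over genes was set to 1. In 10 equal bins the mean r was 0.417 in the shortest genes, 0.337 in the seventh bin and 0.437 in the longest, so that it was highest at both ends. The share of genes called positive was 42.2%, 32.7% and 45.2% in the same bins. After regression on read total the mean r was 0.0894, 0.0640 and 0.153.

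By the spread of a gene's log2 values over the libraries, the mean r was 0.228 in the least variable genes, 0.443 in the fifth bin and 0.316 in the most variable. Called genes had a median SD of 0.42 on the log2 scale, against 0.37 in genes not called. The 5355 genes called positive held 35.6% of the sum of squares of the centred values. The first principal component of these values held 35.9% of it.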
